A study of Mus musculus with 9 samples.

Results

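The cells described here are fibroblasts of mouse embryonic fibroblast (MEF) cultures that carried messenger RNA of both Hoxd13 and Msx1. They were chosen by measured values. A cell was taken as a fibroblast when at least 60 of 10000 of its unique molecular identifiers (UMI, counts of captured RNA molecules) came from the collagen genes Col1a1, Col1a2 and Col3a1 and fewer than 10 of 10000 came from the myeloid genes Tyrobp, Fcer1g, Ctss and Csf1r. It was taken as a double-positive fibroblast when it also held at least 1 UMI of Hoxd13 and at least 1 UMI of Msx1. There were 11240 double-positive fibroblasts among 52224 fibroblasts (21.5%) and among 81999 cells with 3000 UMI or more of which no more than 20% were mitochondrial (13.7%). The other 40984 fibroblasts served as the comparison.

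The study prepared MEFs from midgestation embryos without head and heart, pooled several embryos in a dish, and transduced the cells with lentiviruses for doxycycline-inducible transcription factors that turn fibroblasts into induced neurons, among them Brn2 (Pou3f2) and Myt1l, and for the transactivator M2rtTA. The cultures were WT, Per1-/- (allele Per1tm1Drw) or Per2-/- (allele Per2tm1Drw), the mutants lacking a period gene of the circadian clock. The mutant strains carry B6 and 129 in their names, and the study obtained WT and mutant mice by breeding. Cells were taken on days 4, 7 and 10 of reprogramming, with all groups under these factors and doxycycline, and each genotype and day gave 1 library of single-cell RNA tags at the 3′ ends of transcripts. The labels name neither the embryos, their sex nor the MEF preparation of a library, so genotype, embryos and preparation cannot be told apart.

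Hox genes are transcribed in order along their clusters, and in the limb bud the genes at the 5′ end of the HoxA and HoxD clusters become active in the most distal part, the autopod, which forms hand and foot. Hoxd13 encodes one of the last factors of this series, and mutations of it fuse or add digits. Msx1 encodes a homeodomain factor that answers bone morphogenetic protein (BMP) signals in undifferentiated mesenchyme, including that under the limb ectoderm and between the digits. Dkk2 encodes a secreted Wnt antagonist and Tfap2b an AP-2 transcription factor, both made by limb mesenchyme among other tissues.

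The sequences before the start sites of Hoxd13 and Msx1, which define the cells, and of Tfap2b and Dkk2, which were higher in these cells in every library, are shown because E-boxes (CACGTG) are sites bound by clock factors and because TAATTG is a core that MSX proteins bind. The windows hold 250 bases before the RefSeq start site (GRCm38.p6), 5′ to 3′ along the gene. Capitals mark matches on either strand to the E-box, to the MSX core, to the TATA box (TATAAA) or to a site type of HOX13 proteins (CAATAAA).
Hoxd13, chr2:74667975-74668224, plus strand: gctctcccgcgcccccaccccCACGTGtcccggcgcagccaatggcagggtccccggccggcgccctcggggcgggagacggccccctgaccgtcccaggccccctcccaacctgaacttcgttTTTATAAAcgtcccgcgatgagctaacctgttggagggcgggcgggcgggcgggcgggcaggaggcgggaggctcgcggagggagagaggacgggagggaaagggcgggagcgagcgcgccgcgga
Msx1, chr5:37824586-37824835, minus strand: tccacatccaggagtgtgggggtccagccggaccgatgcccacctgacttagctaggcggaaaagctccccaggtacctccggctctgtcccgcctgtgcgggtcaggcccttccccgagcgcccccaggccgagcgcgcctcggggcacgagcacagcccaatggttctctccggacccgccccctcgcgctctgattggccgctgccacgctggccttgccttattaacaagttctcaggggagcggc
Tfap2b, chr1:19211804-19212053, plus strand: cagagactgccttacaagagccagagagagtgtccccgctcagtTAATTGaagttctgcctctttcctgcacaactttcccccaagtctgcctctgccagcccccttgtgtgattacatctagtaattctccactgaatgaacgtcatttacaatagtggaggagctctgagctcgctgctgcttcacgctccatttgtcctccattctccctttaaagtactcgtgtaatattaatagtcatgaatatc
Dkk2, chr3:132085042-132085291, plus strand: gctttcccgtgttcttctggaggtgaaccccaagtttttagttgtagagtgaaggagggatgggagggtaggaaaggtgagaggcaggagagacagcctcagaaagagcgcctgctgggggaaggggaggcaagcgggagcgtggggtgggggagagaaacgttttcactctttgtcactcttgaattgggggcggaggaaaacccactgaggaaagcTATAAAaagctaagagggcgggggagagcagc

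The windows of Hoxd13, Msx1 and Dkk2 lie upstream of the gene in GENCODE M21 as well, while that of Tfap2b lies inside its longer GENCODE gene model. The Hoxd13 window held an E-box 229 bases before the start and a TATA box on each strand, overlapping each other, at 124 and 126 bases. The Dkk2 window held a TATA box 32 bases before the start and the Tfap2b window an MSX core at 206 bases, and the Msx1 window held none of the searched letters. Among 32851 promoter windows of this length, 6.02% held the E-box, 7.17% the MSX core, 12.4% the TATA box and 4.2% the HOX13 type. The windows of Hoxd13 and Msx1 were rich in G and C, at 74.4% and 68.0%, with 31 and 20 CpG, against 55.6% and 7 for Dkk2, 46.4% and 5 for Tfap2b, and medians of 52.4% and 6 over all windows. A match describes letters only, and binding was not measured here.

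The libraries held 126625215 to 353198559 UMI. The double-positive fibroblasts had median depths of 18738 to 31343 UMI per cell, against 8454 to 32669 for other fibroblasts, the lowest being that of WT on day 10. Per1 transcripts of double-positive fibroblasts, in counts per 1000000 UMI (CPM), were 6.25, 6.93 and 7.85 in WT, 9.25, 5.12 and 12.2 in the libraries labelled Per1-/- and 6.57, 6.32 and 6.42 in Per2-/- on days 4, 7 and 10. Per2 transcripts were 2.66, 3.38 and 3.26 CPM in WT, 2.86, 5.12 and 4.57 in Per1-/- and 6.68, 4.93 and 6.51 in the libraries labelled Per2-/-. Apart from Per1 in Per1-/- on day 7, a value that rests on 2 UMI (95% Poisson interval 0.621 to 18.5 CPM, counting error only), the targeted transcript was not lower under its label, and whether the alleles keep the 3′ end that these tags read was not examined here. Over all fibroblasts, Per1 stood at 10.3 to 11.9 CPM in Per1-/- on days 7 and 10 and at 6.32 to 9.75 in the other 7 libraries. The study used western blots to verify that MEFs of each knockout lacked the protein. Of the double-positive fibroblasts, 333 carried a barcode that also occurred in another library. Pairs of libraries shared 13 to 365 barcodes, or 11 to 38 when only cells past the limits were counted. The libraries of Per1-/- on days 7 and 10 stood apart: 95.2% and 93.4% of their other fibroblasts held UMI of Y-linked genes and none of Xist, the RNA of the inactive X chromosome, against 9.35% to 53.2% in the other 7 libraries.

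The double-positive fibroblasts numbered 1144, 1415 and 949 in WT, 1815, 14 and 55 in Per1-/- and 1075, 2796 and 1977 in Per2-/- on days 4, 7 and 10. As shares of fibroblasts these were 23.6%, 24.1% and 19.3% in WT, 27.7%, 0.377% and 0.912% in Per1-/- and 21.1%, 37.2% and 25.7% in Per2-/-. Almost every such cell of the Per1-/- cultures therefore came from the day 4 library. The exact (Clopper-Pearson) 95% intervals, which cover counting error only, were 0.206% to 0.631% for Per1-/- on day 7 and 0.688% to 1.19% on day 10, and the lowest bound among the other 7 libraries was 18.2%.

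A share of cells with a UMI grows with depth, so every fibroblast was also thinned to 3000 UMI. The expected shares were then 3.03%, 3.43% and 3.94% in WT, 3.09%, 0.0273% and 0.0609% in Per1-/- and 2.59%, 4.1% and 2.93% in Per2-/- on days 4, 7 and 10. The 7 libraries other than Per1-/- on days 7 and 10 lay between 2.59% and 4.1%. The mean over days was 1.06% in Per1-/-, 3.21% in Per2-/- and 3.47% in WT. A 2-sided exact permutation test of genotype within days gave p = 0.306, and that of day within genotypes gave p = 1.0, with 0.612 and 1.0 after Benjamini-Hochberg adjustment over these 2 tests. The smallest p that all assignments allow is 0.0278. With 1 library per genotype and day, the lower share in the Per1-/- libraries of days 7 and 10 than in that of day 4 has no test of its own. Xist and no Y-linked UMI was found in 42.1% of other fibroblasts of Per1-/- on day 4 and in 0% on days 7 and 10. These libraries thus differ in sex make-up as well as in day, and a change over time within a culture is not shown.

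**Figure D1:**
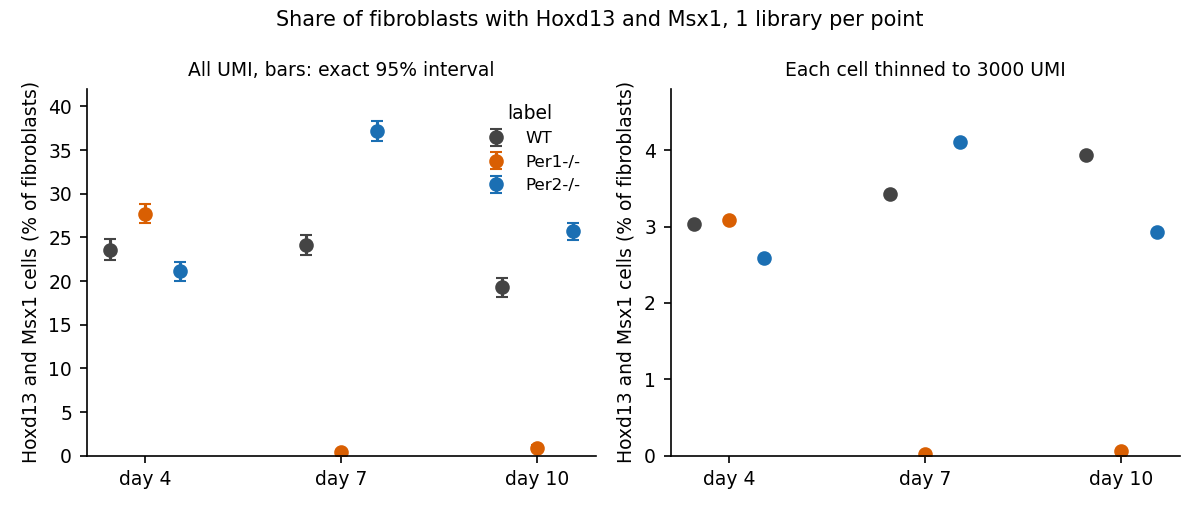
Share of fibroblasts with at least 1 UMI of Hoxd13 and of Msx1 on the y axis (%) by day, 1 point per library coloured by label, from all UMI with exact 95% intervals of counting error (left) and with each cell thinned to 3000 UMI (right). In both panels the Per1-/- libraries of days 7 and 10 lie near 0. The other 7 span 19.3% to 37.2% on the left, with Per2-/- on day 7 highest, and 2.59% to 4.1% on the right.

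Free RNA was gauged in cells that should lack both transcripts. These had at least 50 of 10000 UMI from the 4 myeloid genes and fewer than 60 of 10000 from the collagen genes. Between 0% and 0.865% of these macrophage-gated cells held both genes, at median depths of 18530 to 35008.5 UMI. In the Per1-/- libraries of days 7 and 10, 0 of 1399 and 0 of 1385 macrophage-gated cells held both, with exact upper bounds of 0.263% and 0.266%. The interval of the 14 cells of day 7 overlaps that bound, and that of the 55 cells of day 10 does not. As a description of the rule genes, with cells not thinned to a common depth, in the other 7 libraries Msx1 was found in 43.7% to 73.9% of fibroblasts with Hoxd13 and in 8.74% to 32.7% of those without.

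Of the 11240 cells, 822 (7.31%) held only 1 UMI of each gene and 6517 held at least 2 of each. The median per library was 2 to 4 UMI of Hoxd13 and 1 to 4 of Msx1. Just inside the collagen limit, 597 had 60 to 80 collagen UMI per 10000, while 382 cells with both genes had 40 to 60, just outside it. A further 224 cells with both genes had at least 10 myeloid UMI per 10000. The cells with the highest Scrublet scores, 0.8% of a library's cells per 1000 barcodes, were marked as likely doublets. The number marked per library was thus set beforehand. These included 1337 double-positive cells, 9.09% to 14.3% per library apart from Per1-/- on day 7, where it was 0 of 14. Of other fibroblasts, 2.4% to 11.9% were marked. The median mitochondrial share was 5.43% to 7.91% of UMI, against 4.82% to 6.01% in other fibroblasts.

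The rule genes themselves had the following levels, given as a description. Hoxd13 stood at 121, 130 and 151 CPM in WT, 118, 92.2 and 104 in Per1-/- and 124, 124 and 133 in Per2-/- on days 4, 7 and 10. In other fibroblasts it ranged from 2.65 to 57.9 CPM, the highest being Per2-/- on day 10, where 58.8% of fibroblasts held Hoxd13 and 32.1% held Msx1. Msx1 stood at 166, 183 and 204 CPM in WT, 155, 94.8 and 86.2 in Per1-/- and 159, 139 and 121 in Per2-/-, with 1.46 to 33.9 CPM in other fibroblasts. Col1a1 averaged 6000 ± 1170 CPM (SD, n = 9 libraries) in double-positive and 6810 ± 1230 CPM in other fibroblasts, and Tyrobp 7.56 ± 5.02 and 7.16 ± 4.84 CPM, against 2480 to 3430 CPM in macrophage-gated cells.

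Tfap2b and Dkk2, which the rule did not use, were named as markers of these cells with earlier results of these data known. Their levels are a description and no independent check of the label. Tfap2b stood at 115, 102 and 113 CPM in WT, 83.1, 25.6 and 67.1 in Per1-/- and 126, 109 and 37.2 in Per2-/- on days 4, 7 and 10, and at 1.21 to 17.6 CPM in other fibroblasts. The double-positive cells were higher in all 9 libraries and the groups did not overlap, though the value of Per1-/- on day 7 rests on 10 UMI, with a 95% Poisson interval of 12.3 to 47.1 CPM. Dkk2 stood at 483, 669 and 775 CPM in WT, 392, 218 and 219 in Per1-/- and 445, 454 and 249 in Per2-/-, against 68.0 to 194 CPM in other fibroblasts. It too was higher in double-positive cells in every library. Apart from the sparse Per1-/- libraries, 33.4% to 73.5% of double-positive cells held a UMI of Tfap2b, against 6.72% to 15% of other fibroblasts and 0% to 2.9% of macrophage-gated cells over all libraries.

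**Figure D2:**
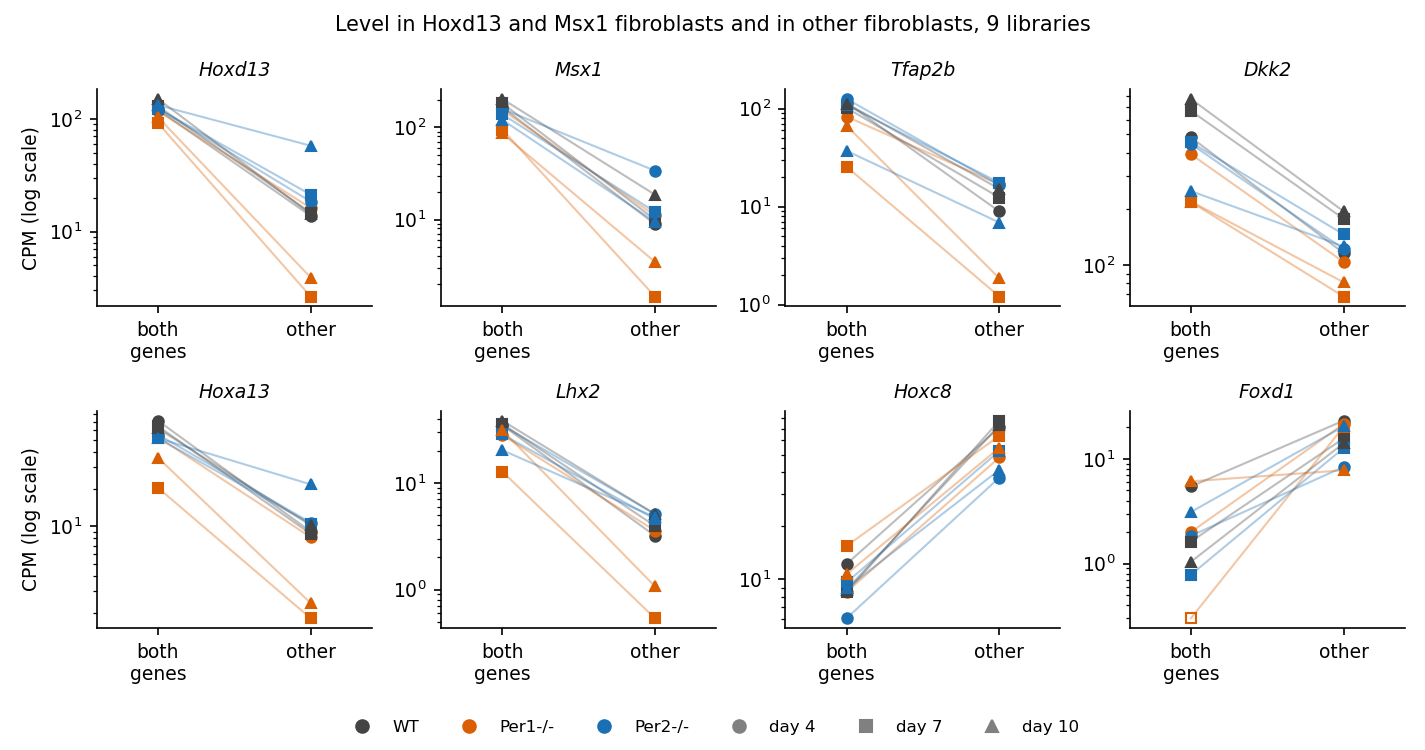
Level of 8 genes in CPM (log scale) in the UMI sums of double-positive ("both genes") and other fibroblasts, with a line joining the values of each of the 9 libraries. Beside the rule genes Hoxd13 and Msx1, Tfap2b, Dkk2, Hoxa13 and Lhx2 were higher and Hoxc8 and Foxd1 lower in double-positive cells in all 9 libraries, the open symbol marking Foxd1 at 0 in Per1-/- on day 7.

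Sums of double-positive and of other fibroblasts of the same library were compared gene by gene with edgeR's quasi-likelihood test with library as a block. Of 15732 genes tested, 1036 (6.59%) passed an adjusted p under 0.05 with at least a 2-fold difference, 287 (1.82%) higher and 749 (4.76%) lower, and the median log2 fold change over all genes was -0.00332. Without the 2-fold limit, 5882 genes had an adjusted p under 0.05. Among the 15 largest increases of genes of at least 10 CPM were 6 transcription factor genes, Tfap2b at 2.96 ± 0.20 (log2 fold change ± SE, adjusted p = 4.95e-07), the LIM-homeodomain gene Lhx2 at 2.95 ± 0.18 (2.41e-07), Hoxa13 at 2.49 ± 0.19 (1.22e-06), Hoxd12 at 2.28 ± 0.22, Hoxd11 at 2.19 ± 0.23 and Lhx9 at 2.11 ± 0.12. Lhx2 stood at 29.4 ± 8.26 against 3.54 ± 1.69 CPM (mean ± SD, n = 9) without overlap of the groups. Hoxa13 stood at 51.6 ± 15.3 against 9.26 ± 5.76 CPM, higher in double-positive cells in 9 of 9 libraries, and the groups overlapped only through 20.5 CPM in the 14 double-positive cells of Per1-/- on day 7 and 21.8 CPM in other fibroblasts of Per2-/- on day 10.

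Tnn, the matrix protein tenascin W, differed by 2.88 ± 0.25 on the log2 scale. The growth factor gene Bmp2 was at 42.6 ± 21.6 against 5.91 ± 1.69 CPM, a difference of 2.48 ± 0.22, with values of 33.7, 50.5 and 59.2 CPM in double-positive cells of WT, 26.2, 58.9 and 82.3 of Per1-/- and 35.3, 18.9 and 18.6 of Per2-/- on days 4, 7 and 10. All 9 exceeded the highest value in other fibroblasts, 7.96 CPM. Cxcl15 encodes a chemokine, at 2.51 ± 0.26, and Apela a peptide ligand of the apelin receptor, at 2.15 ± 0.18. The urea transporter gene Slc14a2 stood at 2.28 ± 0.29, the kinesin gene Kif26a at 2.11 ± 0.18, the galectin gene Lgals7 at 2.10 ± 0.27 and Eva1a at 2.06 ± 0.17. Angptl7, an angiopoietin-like gene, passed at 2.07 ± 0.48 but was higher in only 7 of 9 libraries. The other 14 of these genes were higher in 9 of 9.

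The 15 largest decreases were led by Foxd1, a forkhead factor of stromal progenitors, at -2.98 ± 0.23 (adjusted p = 1.18e-06), with 2.44 ± 2.08 against 16 ± 5.70 CPM. Plac8 stood at -2.93 ± 0.09, the antisense RNA Hoxb5os at -2.92 ± 0.17, the somite factor gene Meox1 at -2.90 ± 0.12 and the secreted factor gene C1qtnf3 at -2.90 ± 0.15. Fmo1, Hoxc8, Hoxb2, Gfra2 (a GDNF family receptor), Cemip (hyaluronan degradation), Lpl (lipoprotein lipase) and the tendon gene Tnmd lay between -2.77 and -2.51. Rpl39l, at -2.55 ± 0.14, is a near copy of Rpl39 and its reads may be split between them. Ptgds, at -2.55 ± 0.59, was lower in only 7 of 9 libraries, while the other 14 genes were lower in 9 of 9. The 15 genes in each direction all passed under all 18 alternative settings tried.

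Hox genes split by cluster and by position in the cluster. Of 22 anterior and middle Hox genes tested, 20 were lower in double-positive cells and 0 higher, with a median of -2.21, led by Hoxd1 at -3.18 ± 0.19, Hoxc8 at -2.63 ± 0.10, Hoxb2 at -2.56 ± 0.09 and Hoxb6 at -2.45 ± 0.13. Of 14 posterior Hox genes tested, 5 were higher (Hoxa13, Hoxd12, Hoxd11, Hoxd10 and Hoxa11) and 6 lower, the latter all from the HoxB and HoxC clusters (Hoxb9, Hoxb13, Hoxc9, Hoxc10, Hoxc11 and Hoxc13). In the HoxD cluster the differences ran from -3.18 at Hoxd1 through -0.15 ± 0.11 at Hoxd9 to 1.82 ± 0.20 at Hoxd10 and 2.28 ± 0.22 at Hoxd12. In the HoxA cluster Hoxa7 stood at -0.48 ± 0.06, Hoxa10 at 0.92 ± 0.11, Hoxa11 at 1.01 ± 0.15 and Hoxa13 at 2.49 ± 0.19. Hoxc8 itself ran from 6.06 to 15.4 CPM in double-positive and from 37.2 to 77.5 CPM in other fibroblasts of the 9 libraries, with means of 9.85 ± 2.66 and 57.6 ± 14.4 CPM and no overlap. Counting by strand is not given in the sources used here, so reads of Hox genes and their antisense RNAs may not be told apart.

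**Figure D3:**
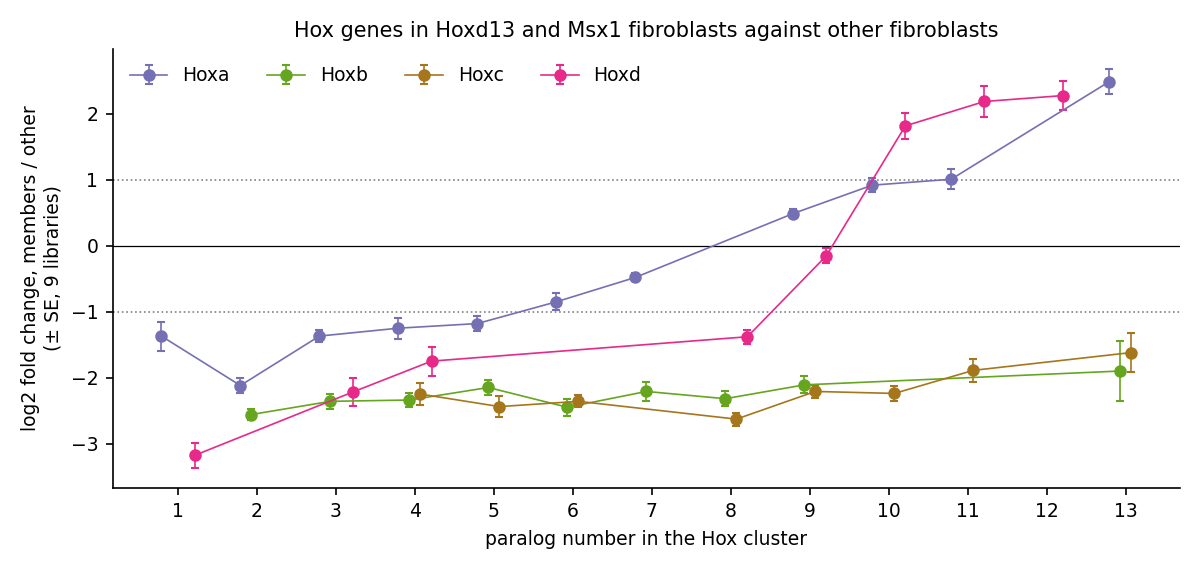
Log2 fold change (± SE) of each tested Hox gene in double-positive against other fibroblasts (members against other on the y axis), by paralog number and coloured by cluster, from 9 libraries, with dotted lines at a 2-fold difference. Hoxa and Hoxd genes climb with paralog number to 2.49 for Hoxa13 and 2.28 for Hoxd12, while all Hoxb and Hoxc genes lie below -1, and Hoxd13, a rule gene, is not drawn.

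Of 21 tested genes of the distal limb, 12 were higher, the markers Tfap2b and Dkk2 among them, and 3 lower, with a median of 1.48. Beside those named, Tfap2a was at 1.88 ± 0.13, the dorsal limb factor gene Lmx1b at 1.94 ± 0.15, Dkk2 at 1.72 ± 0.11, Sall1 at 1.56 ± 0.27, Msx2 at 1.48 ± 0.19 and Hand2, a factor of the posterior limb, at 1.16 ± 0.12. The lower members included En1, the ventral ectoderm and dermal lineage factor, at -1.82 ± 0.11, and the aristaless-type gene Alx4, at -1.89 ± 0.16. Wnt5a, a ligand of the distal mesenchyme, stood at 240 ± 50.2 against 116 ± 19.3 CPM, higher in 9 of 9 libraries, and its log2 fold change, with an SE of 0.08, fell just short of the 2-fold limit (adjusted p = 2.24e-06). Of 14 genes of the proximal limb, 5 were lower (Irx3, Meis1, Emx2, Irx5 and Meis3) and 2 higher (Hoxd10 and Hoxa11). Meis1, which marks the upper limb, was at 14.3 ± 4.14 against 49.3 ± 14.6 CPM, and its highest double-positive value, 23.1 CPM, lay below its lowest value in other fibroblasts, 24.1 CPM.

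Genes that tell the limbs apart divided between regulators and Hox genes. The hindlimb regulators Tbx4, at 2.01 ± 0.16, and Pitx1, at 1.31 ± 0.14, were higher in 9 of 9 libraries, and Hoxc9, Hoxc10 and Hoxc11 were lower. Tbx4 ranged from 27.3 to 53.4 CPM in double-positive and from 4.32 to 12.6 CPM in other fibroblasts, and Pitx1 from 18.1 to 42 and from 8.78 to 15.9 CPM. Neither gene overlapped between the groups. Tbx5, the forelimb regulator, stood at 0.83 ± 0.13, higher in 8 of 9 libraries but under the 2-fold limit, and the other 3 forelimb genes, Hoxc4, Hoxc5 and Hoxc6, were lower. Of 9 genes of genital tubercle and tail, where Hoxd13 is also used, 0 were higher and 3 lower (Foxf1, Hoxb13 and Hoxc13). Of 8 genes of facial mesenchyme, where Msx1 is also used, 0 were higher and 4 lower (Dlx6, Pax3, Dlx5 and Barx1).

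Of 19 BMP ligands and inhibitors, Bmp2, Bmp5 (1.08 ± 0.24) and the inhibitor Grem1 (1.49 ± 0.16) were higher and 3 lower, Bmp6 and Chrdl1 among them, with a median of 0.31. Grem1 was lower in double-positive than in other fibroblasts in the Per1-/- libraries of days 7 and 10, at 5.12 against 10.3 and 3.81 against 4.70 CPM. Of 14 BMP receptors and targets, Msx2 and Bmpr1b (1.23 ± 0.10) were higher and Id4 lower. Of 10 Wnt ligands, Wnt10a, Wnt2b and Wnt5b were higher and Wnt4, Wnt11 and Wnt6 lower. Of 13 Wnt antagonists, Dkk2, Sostdc1 (1.41 ± 0.19) and Wif1 were higher and Sfrp2, Sfrp4, Dkk1 and Sfrp1 lower, with Sfrp2 at 152 ± 130 against 570 ± 294 CPM. Of 19 Wnt receptors, 0 were higher and Lgr6 and Lgr5 lower, and of 11 Wnt targets 0 were higher and Lef1, Nkd1 and Lgr5 lower. Fgfr3 was the 1 FGF gene of 19 that was higher, at 2.04 ± 0.21, with Fgf1 and Fgfr4 lower. Of 11 hedgehog genes, 1 was higher, Dhh, at 0.226 CPM. Of 14 retinoic acid genes, Rdh10 (1.33 ± 0.15) and Rarb were higher and 4 lower, Aldh1a1, Cyp26b1 and Aldh1a3 among them.

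Of 13 chondrocyte genes, 0 were higher and 5 lower, with the cartilage regulator Sox9 at 39.2 ± 17.3 against 122 ± 48.0 CPM. Of 10 tendon and joint genes, Erg was higher, at 1.54 ± 0.14, and Tnmd, Sfrp2, Fmod and Mkx lower. Of 12 dermal fibroblast genes, the urea transporter gene Slc14a1 was higher, at 1.99 ± 0.21, and Ebf2, Dpp4, Lef1 and Cd34 lower. Of 8 osteoblast genes 1 was lower (Dlx5), of 12 contractile genes 2 (Actg2 and Mylk), and of 17 general fibroblast markers 1 (Thy1), with 0 higher in each list. Over all tested genes 1.82% were called higher, so 0 in lists this short is near that share.

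Among 8 muscle, 6 endothelial, 8 epithelial and mesothelial and 16 neuronal genes, 3, 2, 4 and 2 were lower and 0 higher, the neuronal pair being the neurofilament genes Nefl and Nefm. Among 10 macrophage and 10 Schwann and glial genes, 24 S phase, 24 G2 and M phase, 19 clock and 28 interferon response genes, 0 were called in either direction, with medians of -0.07, -0.33, -0.09, 0.07, -0.04 and 0.03. Over all tested genes 1.82% were called higher and 4.76% lower, so 0 calls in lists this short is near that share. A call also needs a 2-fold difference, so smaller differences are not excluded. Per1 differed by -0.08 ± 0.05 and Per2 by 0.23 ± 0.07 on the log2 scale. Of 28 TNF and NF-kB response genes, the chemokine gene Cxcl5 was higher, at 67.6 ± 35.2 against 19.8 ± 7.13 CPM, and Il6, Traf1 and Ccl7 were lower. The reprogramming factors, whose UMI cannot be split into transduced and endogenous, stood at -0.71 ± 0.13 for Pou3f2 and -0.34 ± 0.20 for Myt1l. Both differences were under the 2-fold limit, so neither could be called. Outside Per1-/- on days 7 and 10, Pou3f2 averaged 94.0 ± 25.4 CPM in double-positive cells. In fibroblasts with neither rule gene it averaged 165 ± 60.8 CPM, and double-positive cells were higher in 1 of 7 libraries.

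Fibroblasts with Hoxd13 but not Msx1 (6833 cells), with Msx1 but not Hoxd13 (4267) and with neither (29884) were set beside the double-positive ones in the 7 libraries with many such cells, as levels with no test. Tfap2b averaged 97.9 ± 29.9 CPM (SD, n = 7) in double-positive cells, 42 ± 16.9 with Hoxd13 alone, 39.5 ± 13.8 with Msx1 alone and 3.49 ± 2.66 with neither. Lhx2 followed the same order, at 31.6 ± 6.25, 14.3 ± 3.68, 11.5 ± 4.20 and 0.991 ± 0.585 CPM. Both genes were thus higher with either transcript than with neither, and highest with both, in 7 of 7 libraries. For 2 neighbours of Hoxd13 in its cluster, Hoxd13 alone stood above Msx1 alone, and Msx1 alone above neither, in 7 of 7 libraries: Hoxd12 averaged 19.6 ± 6.20, 17.4 ± 3.13, 4.64 ± 2.15 and 0.855 ± 0.619 CPM and Hoxd11 69.0 ± 12.5, 64.2 ± 15.8, 19.1 ± 13.3 and 5.56 ± 3.70 CPM. For these 2 genes the double-positive cells exceeded the Hoxd13-only cells in 4 of 7 libraries. Meis1 was low with Hoxd13, at 12.6 ± 2.22 and 20 ± 5.94 CPM, and alike with Msx1 alone or neither, at 59.1 ± 29.3 and 55.9 ± 13.4 CPM. Bmp2 averaged 34.6 ± 15.5, 18.4 ± 6.07, 14.1 ± 7.37 and 2.78 ± 0.706 CPM in the same order. A cell may carry an RNA that was not captured, and how many cells entered the single-gene sets in this way was not tested.

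**Figure D4:**
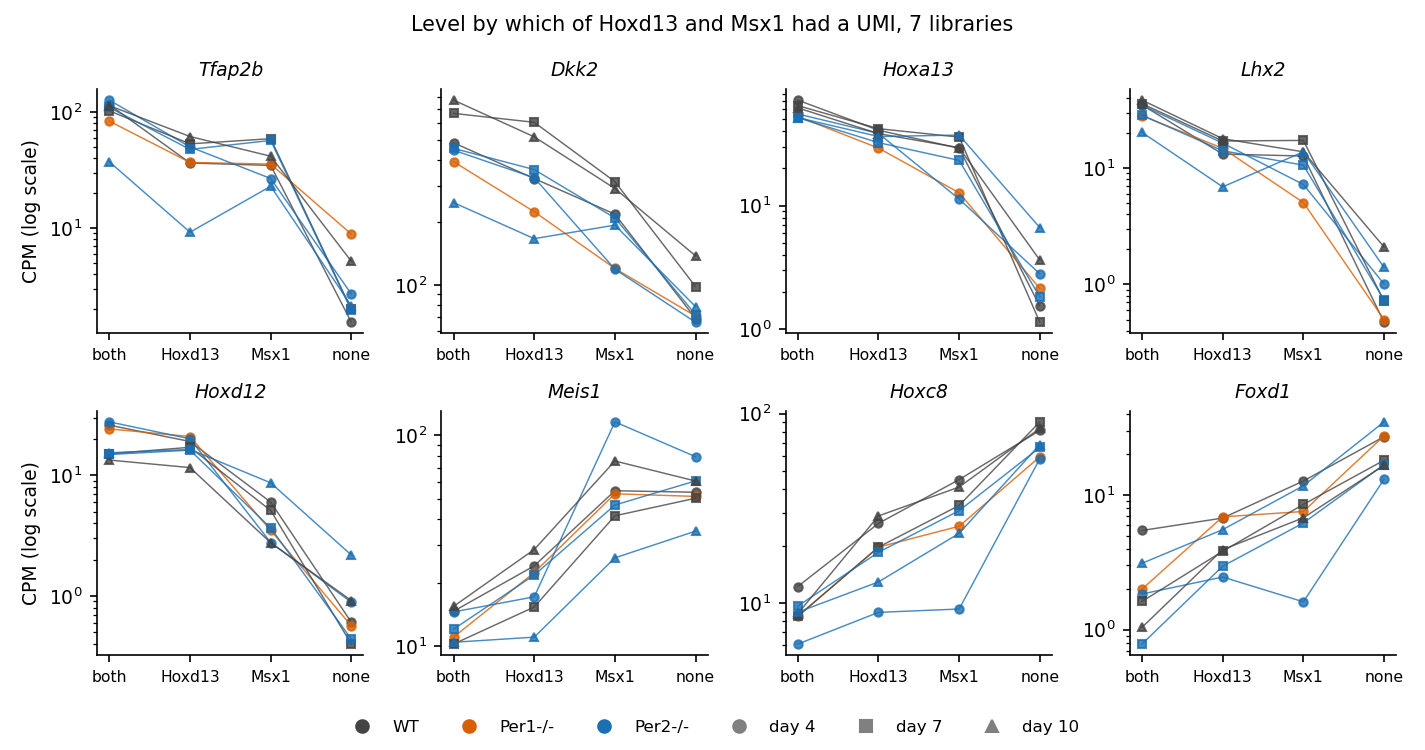
Level of 8 genes in CPM (log scale) in fibroblasts with a UMI of both Hoxd13 and Msx1, of Hoxd13 alone, of Msx1 alone and of none, with a line per library for 7 libraries. Tfap2b, Hoxa13 and Lhx2 are highest with both and lowest with none, Hoxd12 is higher with Hoxd13 alone than with Msx1 alone, Meis1 is lower where Hoxd13 is present, and Hoxc8 climbs toward none.

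UMI of regulators of either limb were found among the double-positive cells, Tbx5 marking the forelimb and Tbx4 and Pitx1 the hindlimb. Macrophage-gated cells, at the depths given above, held Tbx5 in 0% to 2.11%, Tbx4 in 0.0715% to 1.54% and Pitx1 in 0.532% to 2.8%, against 9.09% to 44.2%, 37% to 62.6% and 22.2% to 51.5% of double-positive cells. In other fibroblasts the ranges were 6.52% to 31.7% for Tbx5, 7.38% to 18.6% for Tbx4 and 8.93% to 18.8% for Pitx1. The range of Tbx5 thus overlapped that of double-positive cells. Cells with Tbx4 or Pitx1 but no Tbx5 made up 69.3%, 70.1% and 69.3% in WT, 50.4%, 50% and 67.3% in Per1-/- and 55.3%, 61.6% and 31.2% in Per2-/- on days 4, 7 and 10. Cells with Tbx5 alone made up 9%, 10.0% and 6.53% in WT, 22.3%, 7.14% and 7.27% in Per1-/- and 15.3%, 13.1% and 29.1% in Per2-/-. Hindlimb-type cells outnumbered the Tbx5 type at least 2-fold in 8 libraries, and Per2-/- on day 10 held nearly as many of each. The hindlimb type needs a UMI of Tbx4 or of Pitx1 and the other type one of Tbx5, so their detection is unequal. None of these genes was found in 15.7% to 35.7% of double-positive cells per library. The part of detection in the ratio was not tested, so these counts do not give the make-up by limb. Cells with Tbx5 and a hindlimb gene were fewer than independent detection would give in the 7 libraries with many double-positive cells: 68 against 129 in WT on day 4, 158 against 352 in Per2-/- on day 7 and 299 against 405 in Per2-/- on day 10. Counts of 1 against 1.14 and 1 against 3.45 in Per1-/- on days 7 and 10 are too small to tell. For that Per2-/- library of day 10, the sex-linked RNAs differed between the types. Xist and no Y-linked UMI was found in 10.8% of Tbx5-only and 58.2% of hindlimb-only cells of Per2-/- on day 10 and in 34.1% and 64.4% of those of Per2-/- on day 4. In Per1-/- on day 4 the order was the reverse, at 50.1% and 35%, and in the other 4 libraries with many such cells both types lay between 64.8% and 87.1%.

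**Figure D5:**
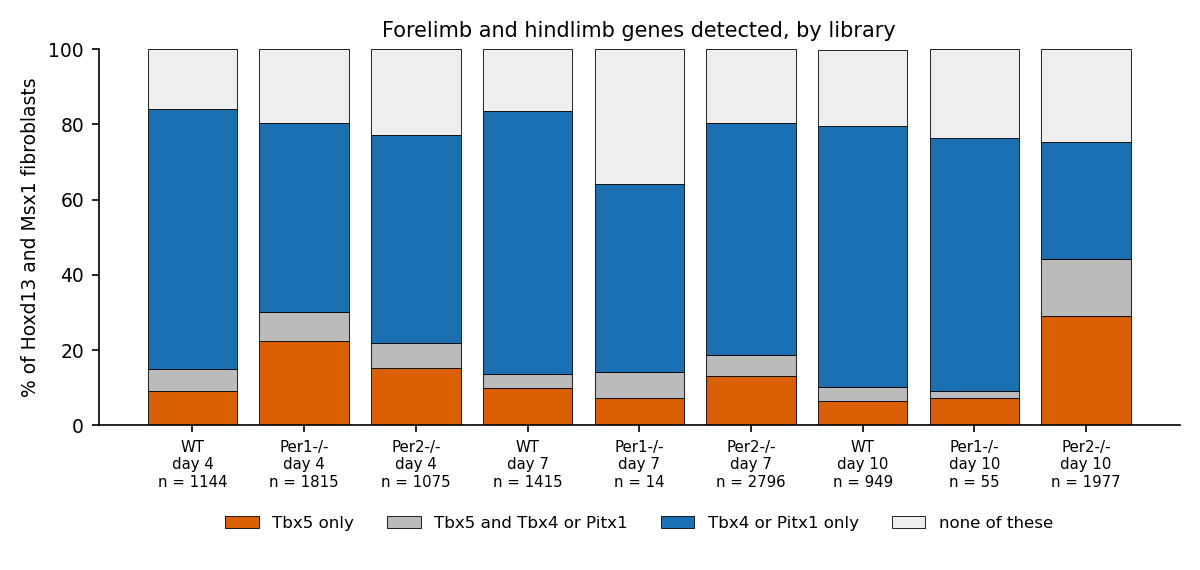
Share of double-positive fibroblasts (%) with a UMI of Tbx5 only, of Tbx5 and of Tbx4 or Pitx1, of Tbx4 or Pitx1 only, or of none of them, stacked by library with the number of cells. The hindlimb class is the largest in all 9 libraries, and the Tbx5 class is largest in Per2-/- on day 10, at 29.1%.

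Within the double-positive cells, Tbx5-only and hindlimb-only sums were set side by side in the 7 libraries, with no test. Of 8737 genes with at least 10 CPM in either, 246 (2.82%) were higher with Tbx5 in all 7 and 192 (2.2%) higher with the hindlimb genes in all 7. The genes named next were chosen after their values were seen. Of the HoxD cluster, Hoxd8 to Hoxd12 were higher on the Tbx5 side: Hoxd8 averaged 17.4 ± 7.07 against 9.84 ± 3.90 CPM (SD, n = 7), Hoxd10 29.6 ± 6.92 against 19.9 ± 4.23, Hoxd11 86.0 ± 14.1 against 63.4 ± 9.84 and Hoxd12 24.8 ± 8.27 against 18 ± 5.44, each higher in 7 of 7 libraries. Irx5, Emx2 and Tbx18, factors of the proximal or anterior limb, were also higher on that side, by 0.71, 0.65 and 0.74 on the log2 scale. On the hindlimb side stood Lypd1, at 65.5 ± 26.7 against 28.9 ± 14.8 CPM, Nexmif, Nrk, at 347 ± 67.1 against 218 ± 55.1 CPM, and Cthrc1. Hoxa13, Lhx2, Tfap2b and Dkk2 differed by -0.26 to -0.05 on the log2 scale with the order changing between libraries.

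The scarcity of double-positive cells in the Per1-/- libraries of days 7 and 10 was looked at over all their fibroblasts. Of 13026 genes with at least 1 CPM, 1387 (10.6%) lay below the lowest of the other 7 libraries in both, and 19 (0.146%) lay at least 4-fold below it. These 19, found by their values, were the rule genes Hoxd13 (3 and 4.98 against 42.1 to 79.2 CPM) and Msx1 (1.83 and 4.35 against 40.8 to 71.1), the limb genes Hoxa13, Hoxd12, Evx2, Hottip, Tfap2b, Lhx2, Lhx9 and Sp9, and Tnn, Gata3, Eva1a, Lgals7, Nlrp10, Car12, Mc4r, Xist and Tsix. Tfap2b was at 1.30 and 2.56 CPM against 15.4 to 51.1 and Hoxa13 at 1.88 and 2.76 against 20.6 to 30.1. Hoxd11, Tbx4 and Dkk2 were lower by less, with Dkk2 at 68.6 and 82.5 CPM against 160 to 359, and the hindlimb gene Pitx1 was within the range of the others, at 13.9 and 12.1 CPM against 11.4 to 20. Summed over their list, the proximal limb genes stood at 703 and 698 CPM inside a range of 564 to 837. The anterior and middle Hox genes, at 350 and 365 CPM, were above the highest of the other 7 libraries, 323 CPM, with 8 of 20 genes above it in both. The sums of the tendon, chondrocyte, Wnt antagonist, general fibroblast and epithelial and mesothelial lists were above the highest of the other 7 as well. The general fibroblast list holds the rule collagens Col1a1, Col1a2 and Col3a1. Sfrp2, at 706 and 1150 CPM, made up most of the tendon sum (934 and 1310) and of the Wnt antagonist sum (1230 and 1660). The sums of the neuronal, Wnt ligand and facial mesenchyme lists lay below the lowest of the other 7, as did those of the distal limb, posterior Hox and BMP receptor and target lists, which hold one or both rule genes. Xist stood at 0.0606 and 0.0652 CPM against 293 to 983, and genotype, sex of the embryos, region taken and preparation cannot be told apart in these libraries.

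Among double-positive cells, genotypes were compared over the 3 days with day as a factor (edgeR, 15036 genes), to ask whether loss of either period gene altered these cells. Each day served as a repeat of a genotype, so the p-values measure only the spread between these libraries, and both contrasts against WT share the WT libraries. The percentage called was 0.0 in each contrast: 0 genes passed, whichever genotypes were compared. The Per1-/- sums of days 7 and 10 came from only 14 and 55 cells, with 390601 and 1321108 UMI. Sums of the other libraries held 24121197 to 85705898 UMI. Those 2 Per1-/- libraries also differed in sex-linked RNAs, as given above. The contrasts with Per1-/- therefore cannot decide whether its loss altered these cells. At p under 0.05 without adjustment, edgeR had 836 genes for Per1-/- against WT, 1034 for the comparison of Per2-/- with WT and 480 for that of the mutants with each other. In the same order, limma-voom gave 0, 12 and 0 calls and DESeq2 gave 65, 41 and 10. The edgeR count for Per1-/- against WT was 81 without the WT library and 41 without the Per1-/- library of day 4. For Per2-/- against WT it was 29 without the WT library and 61 without the Per2-/- library of day 4, and for Per1-/- against Per2-/- it was 32 without the Per1-/- library of day 4. All 35 gene lists held 0 called genes in the fit to all libraries, and other fibroblasts gave 0 in each contrast as well. The genes with the smallest p for Per1-/- against WT, none of which passed, were Edn3 (endothelin 3, 2.03 ± 0.30, adjusted p = 0.159), the Y-linked Ddx3y (1.76 ± 0.26, 0.159) and Klf14 upward, and Gpnmb (-1.22 ± 0.16, 0.119), the heat shock gene Hspa1b and Vgll3 downward. Gpnmb stood at 44.3, 46.0 and 35.1 CPM in WT against 18.7, 17.9 and 16 in Per1-/-, and at 24.4, 22.7 and 21 in Per2-/-. In macrophage-gated cells it ran from 731 to 2720 CPM, and the part of macrophage RNA in these values was not tested.

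For Per2-/- against WT the smallest adjusted p in edgeR was 0.0894, shared by Ptgis (prostacyclin synthase, 1.96 ± 0.26), Angptl1 and Fxyd7 upward and by Tnr, Sat1 and the p53 target Trp53inp1 (-0.92 ± 0.14) downward. Ptgis stood at 11, 23.3 and 22.3 CPM in Per2-/- against 4.13, 4.81 and 6.09 in WT. For Per1-/- against Per2-/- every adjusted p was 1.0, the genes with the smallest p being Col6a3, Cilp and Egfr upward and Tnfsf13os, Gm10076 and Osr1 downward. Cilp reached 23.1 and 13.7 CPM in the 14 and 55 cells of Per1-/- on days 7 and 10 and 0.11 to 1.71 in Per2-/-, and its log2 fold change turned from 2.98 to -0.53 among cells with at least 2 UMI of each rule gene, of which these 2 libraries held 6 and 8. Of the markers, Dkk2 differed by -1.22 ± 0.28 (adjusted p = 0.352, called in 2 of 15 alternatives) and Tfap2b by -0.77 ± 0.35 (0.893) between Per1-/- and WT.

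Day 7 against day 4 gave 201 called genes of 15036 (1.34%), 117 up (0.778%) and 84 down (0.559%). Dcn, the matrix proteoglycan decorin, rose from 477, 492 and 358 CPM in WT, Per1-/- and Per2-/- on day 4 to 1270, 1490 and 1160 on day 7 (log2 fold change 1.52 ± 0.13, adjusted p = 0.00108). The protease-like gene Prss35 (1.85 ± 0.16), the lipid carrier gene Apoe (2.01 ± 0.20), the carboxypeptidase gene Cpz (2.30 ± 0.23) and Kctd12 (1.17 ± 0.14) rose with it. Apoe stood at 632 to 15400 CPM in macrophage-gated cells, which numbered 143, 414 and 188 on day 4 and 511, 1399 and 1186 on day 7. Of 14 macrophage genes 0 were called in double-positive cells, with a median of 0.87, and 0 in other fibroblasts, with a median of 1.3. These 14 include the 4 myeloid genes that the fibroblast rule caps in both sets, so the absence of calls is partly set by the rule. The part of macrophage RNA in the rise of Apoe was not tested. The chemokine gene Ccl2 fell from 31.8, 12.9 and 10.5 CPM to 4.12, 7.69 and 2.07 (-2.57 ± 0.28), and the sterol and fatty acid synthesis genes Fdps (-1.47 ± 0.20), Idi1 (-1.37 ± 0.19) and Scd1 (-1.28 ± 0.15) and the chromatin gene Hmga2 fell as well. Of 24 G2 and M phase genes, 6 fell (Birc5, Cenpa, Ccnb1, Tpx2, Ccnb2 and Cdk1) and 0 rose, with a median of -1.44 against -0.00423 over all genes, and in other fibroblasts 12 fell and 0 rose, with a median of -0.98. The calls of these 6 genes held in 10 to 13 of 15 alternatives. In double-positive cells 0 of 24 S phase genes were called. Hoxd12 fell, at -0.97 ± 0.17 (adjusted p = 0.0267), a call that held in 11 of 15 alternatives with adjusted p up to 0.224, while Tfap2b, Dkk2 and Hoxa13 differed by -0.37 to -0.15 and did not pass. Chrdl1, Fgfr3, Clec3b, Dpt, Comp and Kera rose and Slc14a1 and Acta2 fell, in calls that held in 9 (Acta2) to 15 (Clec3b and Comp) of 15 alternatives. The count was 29 without the library of Per2-/- on day 4, 94, 104 and 26 without those of WT, Per1-/- and Per2-/- on day 7, and 210 of 17025 genes (1.23%) in other fibroblasts.

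Day 10 against day 7 gave 159 called genes (1.06%), 136 up (0.904%) and 23 down (0.153%), and 59 of the 136 exceeded 3 on the log2 scale, against 2 of the 117 genes up from day 4 to day 7. Hgs went from 0.385, 0 and 0.315 CPM to 35.4, 29.7 and 29.5 (6.52 ± 0.26, adjusted p = 2.08e-07), with Fdx2, Mrpl53, Galnt2 and Timm23 also up by 3.88 to 6.74. Ptp4a1 went from 81.8, 131 and 81.1 CPM to 1.09, 0 and 1.07 (-6.39 ± 0.25), with Rps6ka4, Nxf1, Coro1b and Fam220a also down. The day 10 files carry another feature table and software version, and day cannot be told apart from them. In macrophage-gated cells of the same libraries, 73 of the 136 genes (53.7%, against 0.552% of all genes) were at least 2-fold up in all 3 genotypes and 11 of the 23 at least 2-fold down. Hoxd4, at 6.45 ± 0.70, and Apcdd1, at 3.19 ± 0.45, were among the genes up, as in other fibroblasts at 5.88 ± 0.44 and 3.76 ± 0.23. Sfrp2 rose by 1.29 ± 0.19 in double-positive cells (adjusted p = 0.00492) and stood at 0.52 ± 0.18 in other fibroblasts (0.321). Tfap2b, Dkk2 and Hoxa13 differed by -0.38 to -0.02 and did not pass. The count was 98 without WT on day 7, 99 without Per2-/- on day 7 and 98 without Per2-/- on day 10.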

How the data were processed

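The authors deposited raw UMI counts per gene and cell barcode from 10x Genomics 3′ libraries, 1 per genotype and day, aligned to mm10. The matrix headers name Cell Ranger 4.0.0 for days 4 and 7 and 6.0.0 for day 10, whereas the labels name 7.1, and the feature tables hold 31053 and 32285 genes. The 30406 genes shared by both, which took 99.3% to 99.9% of UMI, were used, and 597 symbols differed between the tables. Counts were summed per library over cells of a set. CPM are per 1000000 of these UMI. The rule that chose the cells used measured values, and the members (these cells) and gene lists were chosen with earlier results of these data known.

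Genes were tested with edgeR 4.0.16 (R 4.3.3) quasi-likelihood fits, adjusted by Benjamini-Hochberg across every tested gene, with library as a block for double-positive against other fibroblasts, and with genotype and day as factors for the rest. A call needed an adjusted p under 0.05, and a 2-fold difference as well in the former. The rule genes were left out of that test but kept in the genotype and day fits, where the rule limits their levels. Named genes were the 15 largest called differences in each direction with at least 10 CPM in either set, the 5 smallest p in each direction of a day contrast (3 in a genotype contrast, where none was called) and the listed genes. Alternatives were DESeq2 1.42.0, limma-voom (limma 3.58.1), no filter on low counts, other fibroblasts weighted to the depth of the double-positive cells, fibroblasts with neither gene as the comparison, at least 2 UMI of each gene, Scrublet (scanpy 1.11.5) doublets left out and each library left out, and, added after the data were seen, leaving out Per1-/- on days 7 and 10 and leaving out barcodes shared between libraries. For the share they were no thinning, at least 2 UMI, all cells as denominator, a collagen limit of 120, doublets left out and each day or genotype left out, which for the genotype test was partly added later. Fits were tested on simulated data. Gene positions are from GENCODE M21. Each genotype and day has no replicate library, and depth was 126625215 to 353198559 UMI per library. Some genes that the naming rule picked are not reported here.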

Additional observations from a re-analysis of the deposited data

Results flagged for a closer look

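The thinned share of double-positive cells in Per1-/- minus WT was 0.06 percentage points on day 4, -3.4 on day 7 and -3.88 on day 10, so that the sign on day 4 was opposite to that of the later days. The same difference for Per2-/- minus WT was -0.44, 0.67 and -1.01 points. The share of double-positive cells with Tbx5 alone in Per1-/- minus WT was 13.3, -2.86 and 0.74 points on days 4, 7 and 10, the last pair resting on 14 and 55 cells of Per1-/-. With 1 library per genotype and day, the differences between days were not tested.

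Outside the fibroblast definition, 1073 cells that passed the depth limits held a UMI of both genes. Of cells with both genes, 382 had collagen UMI just under the limit and 224 had myeloid UMI at or above theirs.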

How the results depend on the processing

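The difference between days in the thinned share, day 10 minus day 4, turned to 0.625 percentage points without the Per1-/- libraries. For Per1-/- against WT the count of called genes was 65 with DESeq2 and 23 with no filter, and 0 to 81 with each library left out. For Per2-/- against WT it was 41 with DESeq2, 38 with no filter, 12 with limma-voom, 8 with at least 2 UMI of each gene, 3 without Per1-/- on days 7 and 10, and 0 to 61 with each library left out. For Per1-/- against Per2-/- it was 10 with DESeq2 and 0 to 32 with each library left out. For day 7 against day 4 it was 411 with DESeq2, 372 with no filter, 392 with limma-voom and 26 to 282 with each library left out, and for day 10 against day 7 it was 98 to 194. Cilp in Per1-/- against Per2-/- stood at -0.53 with at least 2 UMI of each gene. The cause of these shifts was not tested. The other 81 values of the main comparisons kept their direction and call, or stayed within 1.5 times the count. Of the values of the genes named by size or by p, with 9 markers in double-positive against other fibroblasts, 1208 kept direction and call, 61 passed the threshold only under the alternative and 2 lost it. These counts leave out the markers in the genotype and day contrasts and the other listed genes, whose calls for double-positive against other fibroblasts held in as few as 10 of 18 alternatives (Hoxa11 and Ccl7) and for day 7 against day 4 in as few as 5 of 15 (Gdf6). The 14 and 55 double-positive cells of Per1-/- on days 7 and 10 limit every value of that genotype after day 4.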
